A study of Mus musculus with 6 samples.

Results

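Small nucleolar RNAs (snoRNAs), their Cajal body relatives (scaRNAs) and the noncoding genes that carry many of them were followed through a Chaf1b deletion in mouse acute myeloid leukaemia cells. Members were chosen by symbol, as genes named Snord, Snora, Scarna, Snhg with a number, or Gas5, with at least 1 TPM (a read count divided by gene length and scaled to a fixed total per library) in at least 3 of the 6 libraries. Of 140 such symbols 129 passed, among 13575 genes that passed the same minimum and 35869 symbols in all. They comprise 69 C/D box snoRNAs (Snord), 37 H/ACA box snoRNAs (Snora), 8 scaRNAs and 15 host genes (14 Snhg genes and Gas5). The 11 symbols under the minimum were Snord90, Snord116, Snord116l1, Snord116l2, Snord64, Snord123, Snord61, Snora35, Scarna3b, Snhg14 and Snhg18, none above 1.9 TPM in any library and 7 of them listed at 0 throughout.

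All 6 libraries came from leukaemic cell clones made with a retrovirus that carries MLL-AF9, a leukaemia fusion gene, with floxed Chaf1b alleles and transduced CreERT2, a recombinase switched on by an oestrogen receptor ligand. Chaf1b encodes a subunit of the chromatin assembly factor CAF-1. The 3 KO libraries were treated with B-estradiol and the 3 WT libraries with ethanol vehicle, and RNA was taken 48 hours after induction. The label WT thus names cells that carry the floxed alleles and CreERT2 too, and the deletion and the oestradiol treatment cannot be told apart. The labels tie no library to a particular clone and do not say whether replicates were separate cultures, so p-values measure the spread between these libraries, which may be technical.

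C/D box snoRNAs guide the methylation of ribose in ribosomal RNA, and H/ACA box snoRNAs guide the conversion of uridine to pseudouridine. The scaRNAs guide the same changes in spliceosomal RNAs within Cajal bodies. Most mammalian snoRNAs are cut from introns of host genes after splicing. Many of these hosts encode ribosomal proteins or other translation and nucleolar factors, and the Snhg genes and Gas5 are hosts whose spliced RNA encodes no known protein and is often removed by nonsense-mediated decay. A few snoRNAs, such as Snord118 (U8) and Snord13 (U13), have genes of their own.

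The sequences below show the C/D and the H/ACA box genes with the smallest adjusted p in each class, all lower in KO. They are printed 5′ to 3′ from GENCODE M21 transcripts on GRCm38 (the assembly mm10 names). Capitals mark the GATG of the C box and the CTGA of the D box in Snord34 and Snord57, and the ACA that lies 3 bases from the 3′ end in Snora3 and Snora64. Snord34 lies at chr7:45126601-45126670 on the minus strand in an intron of Rpl13a, and Snord57 at chr2:130278016-130278087 on the plus strand, within an exon of an annotated transcript of Nop56. Snora3 lies at chr7:109520120-109520251 on the plus strand of Rpl27a and Snora64 at chr17:24720772-24720905 on the plus strand of Rps2, both overlapping an annotated exon of the host.
Snord34: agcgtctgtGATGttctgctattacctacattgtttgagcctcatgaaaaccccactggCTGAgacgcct
Snord57: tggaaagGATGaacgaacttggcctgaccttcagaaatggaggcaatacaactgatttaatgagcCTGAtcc
Snora3: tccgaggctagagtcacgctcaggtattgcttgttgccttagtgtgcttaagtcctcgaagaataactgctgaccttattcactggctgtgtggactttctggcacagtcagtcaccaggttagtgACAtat
Snora64: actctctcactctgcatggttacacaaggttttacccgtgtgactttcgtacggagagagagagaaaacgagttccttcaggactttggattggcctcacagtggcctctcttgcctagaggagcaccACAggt
On the gene's own strand, a GATG in the first 20 bases together with a CTGA in the last 12 was found in 54 of the 69 C/D members (78.3%) and in 7 of 2202 annotated microRNA genes (0.318%). An ACA placed 3 bases from the 3′ end was found in 29 of the 35 H/ACA members with an annotated transcript (82.9%) and in 72 of the 2202 microRNA genes (3.27%). A match is a description of the letters, and a gene without one may still hold a variant box.

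These RNAs are short against the reads. RefSeq gives the 114 small RNA members gene lengths of 28 to 275 bases, with medians of 68 for C/D, 121 for H/ACA and 94.5 for scaRNAs, and 72 of them are shorter than the 100 base reads. The libraries were also made from polyadenylated RNA, whereas mature snoRNAs carry no poly(A) tail. A read over a snoRNA gene may therefore come from the mature RNA, from a precursor or from an unspliced host transcript, and these sources cannot be told apart in gene-level values.

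The depth behind the values could be read from their steps. Multiplied by the RefSeq gene length, the TPM of short genes came in whole multiples of what 1 read is worth, between 22.8 and 30.7 TPM times bases in the 6 libraries. The step of each library was itself chosen to make the most such products whole, over short genes that include most of these members. The shares that follow are therefore no independent check of the lengths. All 231 testable values of the small RNA members were whole within 0.2 reads (31.4% would be by rounding alone). With GENCODE lengths 86 of 175 were whole (49.1%, against 34.8% by rounding alone). RefSeq gene models were shorter than the GENCODE ones for 88 of 112 small RNAs, as for Snord98, with 28 bases in RefSeq, and for Snora61, with 62. The levels rest on those lengths, and TPM of single snoRNAs can be inflated where the model is short. On this scale the C/D members had a median of 105 reads per library, the H/ACA members 175 and the scaRNAs 10.9.

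Chaf1b itself was listed at 17.7, 14.4 and 14.2 TPM in KO and at 48.6, 49.0 and 50.6 TPM in WT, a KO level of 31.2% of WT (adjusted p = 0.0058 in limma; exact two-sided permutation p = 0.1, the smallest that 3 against 3 libraries allow). Its call was lost without KO replicate 3, at a log2 fold change of -1.57 beside -1.62 with all libraries. Myeloid leukaemia markers were present in all libraries, with a summed level of 9 genes of 4410 to 6556 TPM in KO and 1961 to 2424 TPM in WT. Mpo, the myeloperoxidase gene, ran from 1018 to 2311 TPM in KO and from 19.4 to 127.6 TPM in WT, and Elane from 2601 to 3533 TPM and from 1152 to 1562 TPM. Most of the gap between the groups in the sum came from Mpo and Elane. Kit, Meis1, Myb and Cebpa were higher in KO by far smaller amounts, without overlap. Hoxa9 was lower in KO, at 165.6 to 186.7 TPM beside 203 to 218.8 TPM in WT, and Ptprc and Spi1 overlapped. The summed level did not overlap between the groups, and its part in the snoRNA results was not tested. In all 6 libraries both B cell markers were listed at 0 and all 4 T cell markers stayed under 1 TPM. WT replicate 1 stood apart: on log2(TPM + 1) over all tested genes it correlated at 0.984 and 0.986 with the other WT libraries. Those correlated with each other at 0.998. The column header of WT replicate 1 alone carries a tag with the words replace and Qiagen, whose meaning is not stated. KO replicate 1 correlated at 0.991 and 0.992 with the other KO libraries, which correlated at 0.998. The summed level of 6 late granulocyte genes was 210.5 TPM in WT replicate 1, against 20.4 and 28.5 in the other WT libraries and 61.7 to 130 in KO, and none of the 6 was listed at 0 in every library. In WT replicate 1 most of it came from Ngp (109.5 TPM) and Ly6g (62 TPM), while Camp, at 2.6 TPM beside 2.3 and 2.4 TPM, and Ltf, at 0.1 TPM beside 0.3 and 0.2 TPM, did not stand out from the other WT libraries. The part of these genes, or of what the tag stands for, in the results below was not tested.

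The snoRNAs and host genes were mostly lower in the mean of KO than in the mean of WT, by modest amounts. Few of them singly passed the test. WT replicate 1 did not share the higher level of the other WT libraries. The summed TPM of the 114 small RNA members was 5159 there, beside 5201 to 5663 in KO and 8263 and 7031 in WT replicates 2 and 3. In limma on log2(TPM + 1) with all 6 libraries, 12 of the 129 members were called lower in KO at an adjusted p under 0.05 (7 C/D, 3 H/ACA and 2 host genes), where 6.11% of all tested genes were called lower. One member, the host gene Snhg11, was called higher (1 of 129), against 12.9% of all tested genes. All tested genes gave 1745 higher and 830 lower calls, a split that quantile normalization turned to 1346 higher and 1722 lower, with 15 members lower and 1 higher. By class, 10.1% of C/D, 8.11% of H/ACA and 13.3% of host genes were called lower, and 0 of the 8 scaRNAs were called in either direction by limma (0 also at an unadjusted p under 0.05). Among the 8135 genes averaging 10 TPM or more, 9.29% were called lower and 8.47% higher. The share of members called lower (9.30%) lay close to that. The members average from 0.75 TPM up, so they are not fully matched to those genes in level. At an unadjusted p under 0.05, 33 of the 129 members were lower and 1 was higher. Of all 13575 tested genes 2259 were then lower and 2902 higher. Of the 8135 averaging 10 TPM or more, 1920 were lower and 1226 higher.

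Direction was more uniform than the calls. The log2 fold change (KO against WT, on TPM + 1) was negative for 62 of 69 C/D members, 31 of 37 H/ACA members, 3 of 8 scaRNAs and 12 of 15 host genes, beside 48.9% of all tested genes and 59.2% of those averaging 10 TPM or more. Its median was -0.31 for C/D, -0.24 for H/ACA, 0.09 for scaRNAs and -0.19 for host genes, beside 0.01 over all tested genes and -0.05 over those averaging 10 TPM or more. Under quantile normalization the scaRNA median was -0.27, so the sign of that class depended on the scaling. All 3 KO values lay below all 3 WT values for 31 members, 24.0% of them, where 19.5% of all tested genes and 26.7% of those averaging 10 TPM or more did the same.

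The count of calls turned on single libraries. Without WT replicate 1, 61 members were called lower (29 C/D, 20 H/ACA, 0 scaRNAs and 12 host genes) and 1 higher, beside 14.2% of all tested genes called lower and 21.6% higher. Among genes averaging 10 TPM or more, 20.9% were then called lower. Of the 12 members called lower with all libraries, 10 were among these 61, all but Snora21 and Snord49a. Without both replicates 1 the count was 63 (32 C/D, 19 H/ACA and 12 host genes), beside 27.3% of all tested genes called lower. Leaving out KO replicate 2 gave 2 lower calls, WT replicate 2 gave 1, and KO replicate 3 or WT replicate 3 gave 0. Calls over all tested genes then fell to between 0 and 3 lower. At an unadjusted p under 0.05, 24 and 34 members were lower without KO replicate 3 and without WT replicate 3, beside 1176 and 1564 of the 13575 tested genes. Without KO replicate 1 there were 14 members called lower, beside 11.9% of all tested genes called lower. Among removals of 1 library, only that of WT replicate 1 raised the count of members called lower more than 1.5-fold, from 12 to 61.

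**Figure D1:**
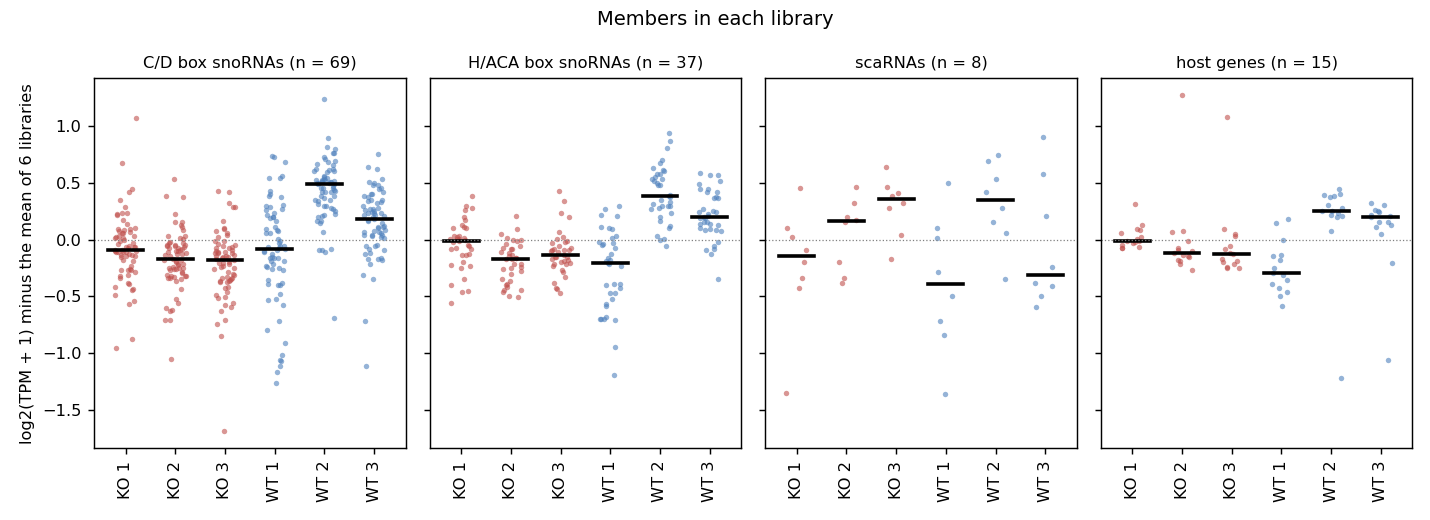
Each point is 1 member, as its log2(TPM + 1) in a library minus its mean over the 6 libraries (vertical axis), with libraries along the horizontal axis, KO in red and WT in blue, 1 panel for each class and a black bar at the median. The C/D median is 0.49 in WT replicate 2 and 0.18 in WT replicate 3 but -0.08 in WT replicate 1, beside -0.09 to -0.18 in the 3 KO libraries.

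Among C/D box snoRNAs, the 7 called lower were Snord34, Snord57, Snord95, Snord118, Snord32a, Snord69 and Snord49a, and none was called higher (0 at an unadjusted p under 0.05). Snord34 was listed at 90.7, 92.3 and 92.5 TPM in KO and at 143, 170.9 and 150.4 TPM in WT. The groups are well apart, and the 3 KO values lie within 2 TPM of each other (91.8 ± 0.987 against 154.8 ± 14.5, mean ± SD, n = 3 each), a KO level of 59.3% of WT (log2 fold change -0.74, SE 0.07, adjusted p = 0.011 in limma). Its estimated reads ran from 199 to 453 per library. The call was lost without KO replicate 3 or WT replicate 3 (log2 fold changes -0.75 and -0.76), and without KO replicate 2 only Snord34 and Snord95 of the 7 stayed called, without WT replicate 2 only Snord34.

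Snord57, encoded in the gene of the snoRNP core protein Nop56, was listed at 49.1, 49.6 and 34.1 TPM in KO and at 91.2, 102.4 and 73.4 TPM in WT. The lowest WT value is above the highest KO value, and KO stood at 49.7% of WT (log2 fold change -0.998, SE 0.18, adjusted p = 0.021 in limma). Its call was lost without KO replicate 2, KO replicate 3, WT replicate 2 or WT replicate 3, at values of -1.09, -0.82, -0.89 and -1.13. Snord110, the other C/D member in Nop56, was listed at 7.4, 10.4 and 13.0 TPM in KO and at 24.7, 25.3 and 14.0 TPM in WT, about as far apart but on 37.2 reads per library, and missed the test (log2 fold change -0.97, adjusted p = 0.055 in limma).

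Snord95, from the gene of the ribosomal scaffold protein Rack1, was listed at 34.1, 44.1 and 36.1 TPM in KO and at 59.7, 54.9 and 52.2 TPM in WT, with no overlap (log2 fold change -0.54, adjusted p = 0.025 in limma). The values without KO replicate 3, WT replicate 2 or WT replicate 3, which ended the call, were -0.51, -0.55 and -0.58. Snord96a, the most abundant C/D member per length, lies in the same host and was listed at 374.6, 359.5 and 375.0 TPM in KO and at 330.1, 499.1 and 444.4 TPM in WT. Here WT replicate 1 lies below every KO library, and the log2 fold change of -0.18 missed the test (adjusted p = 0.410 in limma). Snord118 (U8), which is needed for maturation of the large ribosomal subunit RNA, was listed at 0.4, 0.9 and 0.4 TPM in KO and at 1.2, 1.5 and 1.8 TPM in WT (log2 fold change -0.68, adjusted p = 0.038 in limma). These values rest on 2 to 10 estimated reads a library, and counting error alone comes to 42.0% of the mean. Removal of any library but WT replicate 1 ended this call, at values from -0.83 to -0.60.

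The 4 C/D snoRNAs of Rpl13a, a ribosomal protein gene whose snoRNAs are known from work on lipid stress, were all lower in KO in mean. Snord32a was listed at 65.6, 57.5 and 51.9 TPM in KO and at 76.8, 109.5 and 83.7 TPM in WT (log2 fold change -0.61, adjusted p = 0.040 in limma). Snord33 and Snord35a, with log2 fold changes of -0.53 and -0.41, missed the test, and in both WT replicate 1 lay within the range of the KO values. The host differed less: Rpl13a stood at 2335, 2165 and 2291 TPM in KO and at 2416, 2403 and 2432 TPM in WT (log2 fold change -0.10, adjusted p = 0.131 in limma).

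Snord69, from the gene of the nucleolar GTPase Gnl3, fell to 69.9% of WT (87.8 TPM against 125.6 TPM), and Snord49a, from the noncoding 2410006H16Rik, to 69.2% (93.2 TPM against 134.7 TPM). Of the other abundant C/D members, Snord104 was listed at 250.6, 190.1 and 213.6 TPM in KO and at 223, 314.2 and 265.9 TPM in WT. Its groups overlap, and the test was missed (log2 fold change -0.29, adjusted p = 0.206 in limma). The C/D members ranged from Snord57 at the low end to Snord92 at 0.89, the latter on 4.33 reads per library.

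**Figure D2:**
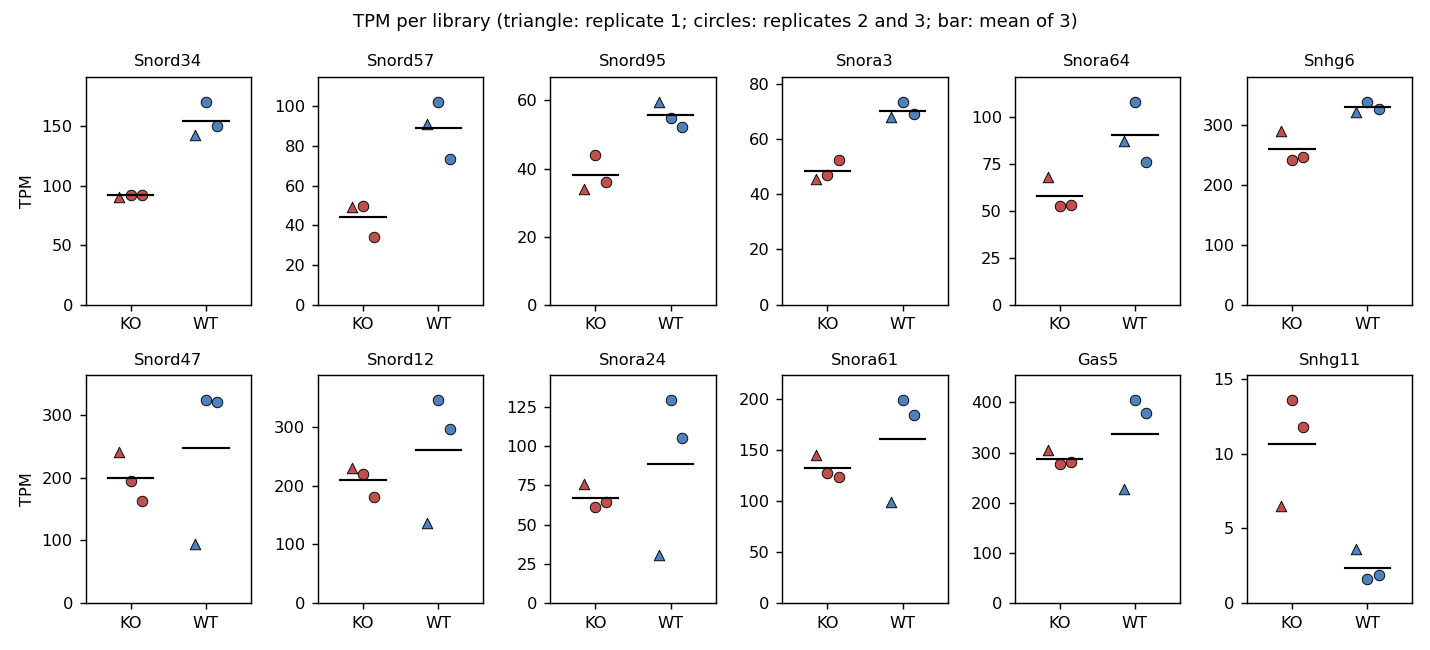
TPM (vertical axes, from 0) in each KO (red) and WT (blue) library for 12 members, with triangles for replicate 1, circles for replicates 2 and 3, and a bar at the mean of 3. In the upper row every KO value lies below every WT value. In the lower row the WT triangle of Snord47, Snord12, Snora24, Snora61 and Gas5 lies below every KO value, and Snhg11 alone is higher in KO.

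Among H/ACA box snoRNAs, Snora3, Snora64 and Snora21 were called lower and none higher (0 at an unadjusted p under 0.05). All 3 are encoded in ribosomal protein genes. Snora3, in Rpl27a, was listed at 45.6, 46.9 and 52.4 TPM in KO and at 68, 73.7 and 69 TPM in WT. The groups do not overlap and WT replicate 1 sits with the other WT libraries (log2 fold change -0.53, SE 0.07, adjusted p = 0.013 in limma). Snora64, in Rps2, was listed at 68.1, 52.7 and 53.2 TPM in KO and at 87.1, 108.1 and 76.1 TPM in WT, which again do not overlap (log2 fold change -0.63, SE 0.16, adjusted p = 0.041 in limma). Snora21, in Rpl23, was listed at 12.1, 13.4 and 16.1 TPM in KO and at 18.9, 21.4 and 17.4 TPM in WT, a narrow gap (log2 fold change -0.45, adjusted p = 0.049 in limma). Its call was lost in 14 of the 18 alternative settings, the removal of each of the 6 libraries among them (-0.55 to -0.36). The calls of Snora3 and Snora64 were lost without KO replicate 2, KO replicate 3, WT replicate 2 or WT replicate 3, at -0.51, -0.59, -0.50 and -0.54 for Snora3 and at -0.56, -0.57, -0.49 and -0.74 for Snora64.

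The H/ACA members with the highest TPM had negative log2 fold changes that missed the test. Snora65, in Rpl12, was listed at 216, 196 and 183.6 TPM in KO and at 198, 262.6 and 248.6 TPM in WT. Snora68 was listed at 183.8, 190.2 and 181.6 TPM in KO and at 191.9, 247.5 and 221.3 TPM in WT. Snora61, in Snhg12, was listed at 145.6, 127.6 and 123.7 TPM in KO and at 98.9, 199.6 and 184.4 TPM in WT. Their log2 fold changes were -0.24, -0.24 and -0.22 (adjusted p = 0.183, 0.111 and 0.576 in limma). For Snora65 and Snora61 the groups overlap through WT replicate 1, and for Snora68 they are parted by less than 2 TPM. Snora73b and Snora73a (U17, which acts in maturation of the small ribosomal subunit RNA) gave -0.27 and -0.20. These 2 genes differ at 7 of 205 bases, so reads may be split between them.

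The scaRNAs had few reads, and limma called none of them. The 3 with the highest mean were Scarna10 (17.8, 14.8 and 11.2 TPM in KO; 13.8, 9.8 and 10.6 TPM in WT), Scarna9 and Scarna8. Scarna10 had 36.2 estimated reads per library and a log2 fold change of 0.32 (adjusted p = 0.254 in limma), and its groups overlap. The other 7 had means of 4.33 to 27.0 reads, and Scarna2 and Scarna3a were each listed at 0 in 1 library. Counting error is large at such read numbers, and no difference passed the test with all 6 libraries, while a fit with array weights called 1 scaRNA lower.

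**Figure D3:**
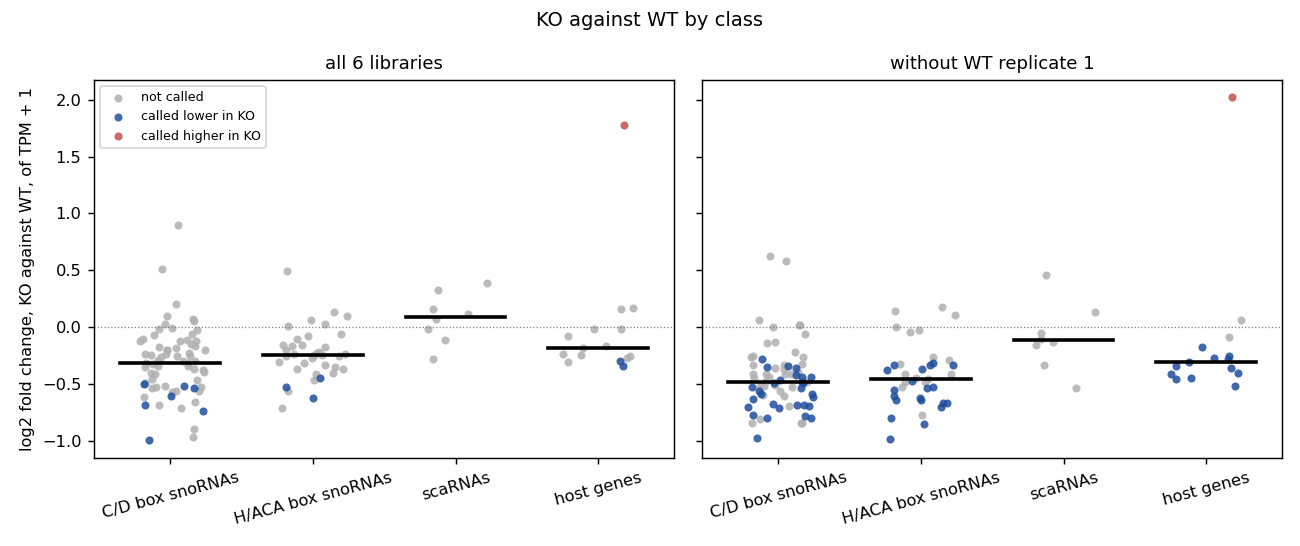
Log2 fold change of TPM + 1, KO against WT (vertical axis), for each member by class, with all 6 libraries on the left and without WT replicate 1 on the right, called members in blue (lower) or red (higher), others in grey, and a black bar at the class median. The medians of C/D, H/ACA and host genes move from -0.31, -0.24 and -0.19 to -0.48, -0.46 and -0.31, and that of scaRNAs from 0.09 to -0.12.

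Among the host genes, Snhg6 and Snhg17 were called lower and Snhg11 higher. Snhg6, which carries Snord87, was listed at 289, 241.4 and 246.3 TPM in KO and at 321.7, 338.6 and 325.5 TPM in WT. The groups do not overlap and the 3 WT values lie close together (log2 fold change -0.35, SE 0.08, adjusted p = 0.030 in limma). Snhg17 was listed at 12.2, 11.8 and 10.7 TPM in KO and at 14.8, 15.1 and 13.4 TPM in WT (log2 fold change -0.30, adjusted p = 0.044 in limma). Snhg11 was listed at 6.5, 13.6 and 11.8 TPM in KO and at 3.6, 1.6 and 1.9 TPM in WT, so KO was higher in every library, with KO replicate 1 the lowest and WT replicate 1 the highest of its group (log2 fold change 1.78, SE 0.31, adjusted p = 0.020 in limma). These 3 calls were each lost when KO replicate 2, KO replicate 3, WT replicate 2 or WT replicate 3 was left out, at log2 fold changes from -0.35 to -0.25 for the 2 lower genes and from 1.59 to 1.69 for Snhg11. No small RNA member was assigned to Snhg17 or Snhg11.

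Gas5, a noncoding host that accumulates in growth-arrested cells, was listed at 304.8, 277 and 281 TPM in KO and at 227.7, 405.1 and 379 TPM in WT. WT replicate 1 lies below every KO library while the other WT libraries lie above them all, and the test was missed (log2 fold change -0.19, adjusted p = 0.562 in limma). Snhg1, the most abundant host per length and the carrier of Snord22, was listed at 520.1, 477.8 and 466.3 TPM in KO and at 492.1, 707.5 and 631.5 TPM in WT (log2 fold change -0.31, adjusted p = 0.144 in limma). Snhg12, Snhg15, Snhg8, Snhg5 and Snhg3 gave -0.25, -0.24, -0.23, -0.02 and -0.01, with adjusted p of 0.239, 0.070, 0.338, 0.956 and 0.951. Of these only Snhg15 had no overlap between the groups, with 120.8, 119.1 and 111.1 TPM in KO and 126.9, 152.3 and 137.7 TPM in WT. With WT replicate 1 left out, 12 of the 15 host genes were called lower and Snhg11 remained higher. In that fit 14.2% of all tested genes were called lower and 21.6% higher. Of those averaging 10 TPM or more, 20.9% were called lower. Snhg9 and Snhg10 were not called in either fit, at 0.17 and 0.16 with all libraries.

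The small RNAs were lower against WT than the genes that carry them in most pairs, most uniformly in ribosomal protein genes. A host on the same strand was found in GENCODE M21 for 102 small RNA members, in 74 host genes, 50 lying within an intron and 52 overlapping an exon of some annotated transcript. Both were called lower in 1 pair (Snord57 and Nop56), the small RNA alone in 8, the host alone in 12 and neither in 81. The small RNA had the more negative log2 fold change in 69 of the 102 pairs, with a median of -0.25 beside -0.09 for their hosts. Pairs that share a host are not independent. The 12 members left without a host are not all hostless. By RefSeq coordinates Snora43 and Snora17 lie within Snhg7, Snora16a within Snhg12 and Snora74a within Snhg4. For these GENCODE M21 gave no matching entry for the snoRNA or the host, so they are outside the pairs and the groups of hosts. Nop56 was listed at 78.1, 66.4 and 68.5 TPM in KO and at 84.7, 105 and 97.2 TPM in WT (log2 fold change -0.42, adjusted p = 0.036 in limma).

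The kinds of host, sorted into groups after the values had been seen, differed in how far small RNA and host parted. The 32 small RNAs in ribosomal protein genes all had negative log2 fold changes and all were more negative than their host, with a median of -0.36 beside -0.06 for their 23 hosts, none of which was called (5 of the small RNAs were). The host levels of Snora3 and Snora64 show this: Rpl27a stood at 1045, 978 and 1057 TPM in KO and at 1074, 1074 and 1070 TPM in WT, and Rps2 at 2650, 2300 and 2461 TPM in KO and at 2573, 2774 and 2811 TPM in WT. Rpl23 and Rpl12 gave 0.02 and -0.07, and Rack1, which is counted with the other protein-coding genes, gave -0.05. For 48 small RNAs in 36 other protein-coding genes the medians were -0.17 and -0.13, and the small RNA was the more negative in 25 pairs. For 22 small RNAs in 15 noncoding hosts they were -0.30 and -0.23, and the small RNA was the more negative in 12 pairs. The groups also differed in read depth. The median was 152 estimated reads per library in ribosomal protein genes, 46.3 in other protein-coding genes and 220 in noncoding hosts. Under 20 reads lay 12 of the 48 small RNAs in other protein-coding genes and 0 in each of the other groups. Whether the groups differ, and the part of depth in it, was not tested.

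Small RNAs from 1 host did not always have like values. Of 21 hosts with 2 or more members, 15 had all their small RNAs at negative values, and in 10 the values spread over more than 0.3 on the log2 scale. Among hosts whose small RNAs all had over 20 reads, the widest spread was in Rpl23a, where Snord42b gave -0.68 and Snord4a -0.07, with the host at 0.01. In Ncl, the nucleolin gene, Snora75 gave -0.56 (12.9, 13.2 and 18.3 TPM in KO and 19.5, 26.4 and 20.7 TPM in WT) and Snord82 0.51, the latter on 5.83 reads per library. Of the 59 hosts that are protein-coding, 6 were called lower and 0 higher in limma (13 lower and 1 higher at an unadjusted p under 0.05). That share of 10.2% lower lies near the 9.29% of genes averaging 10 TPM or more. The called hosts were Tbrg4, 2410002F23Rik, Nop56, Eif4g1, Wdr43 and Rab3gap2. Tbrg4, host of Snora5c, was listed at 20.1, 18.4 and 19 TPM in KO and at 25.5, 25.1 and 24 TPM in WT (log2 fold change -0.36, adjusted p = 0.016 in limma). Among 7 noncoding hosts outside the Snhg genes and Gas5, 1810032O08Rik, which carries Snord1a, Snord1b and Snord1c, was called lower (log2 fold change -0.36, adjusted p = 0.039 in limma). Zfas1, host of Snord12, was listed at 290.2, 251.8 and 256.1 TPM in KO and at 297.1, 359.7 and 337.1 TPM in WT and missed the test (-0.31, adjusted p = 0.055 in limma).

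**Figure D4:**
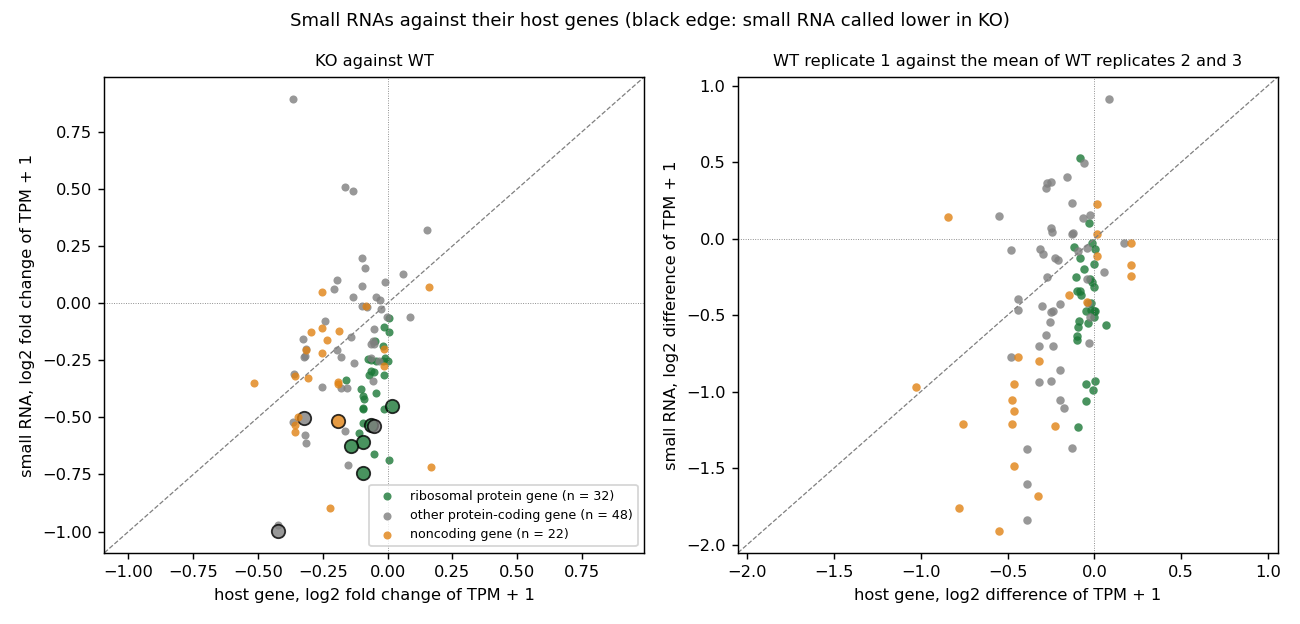
Each point is 1 of 102 small RNAs, with its host on the horizontal and itself on the vertical axis, coloured by kind of host, and a dashed line where both are equal. On the left (log2 fold change, KO against WT) the 32 small RNAs of ribosomal protein genes (green) all lie below the line. On the right (log2 difference of WT replicate 1 from the mean of WT replicates 2 and 3) those of noncoding hosts (orange) reach down to -1.91 while their hosts, apart from Dancr at -1.03, lie between -0.84 and 0.21.

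Against the other WT libraries, WT replicate 1 was low in most of these RNAs. It lay below both other WT libraries for 91 of the 129 members (70.5%), beside 43.3% of all tested genes, and above both for 11. The median difference on the log2 scale was -0.37 for C/D, -0.48 for H/ACA, -0.53 for scaRNAs and -0.46 for host genes, beside 0.00 over all tested genes. For 50 members (38.8%) it lay below all 3 KO libraries too, beside 40.1% of all tested genes. The corresponding difference of KO replicate 1 from the other KO libraries was 0.13 in median over the members.

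Several abundant snoRNAs of noncoding hosts and of Hspa8 were lower in WT replicate 1 than in the other WT libraries; those named here were picked after their values had been seen. Snora24, in Snhg8, was listed at 30.3 TPM in WT replicate 1 against 129.5 and 105.4 TPM in the other WT libraries and 76, 60.9 and 64.2 TPM in KO, so that library held 25.8% of the mean of its fellows. Snord47, in Gas5, was listed at 94.7 TPM against 324.9 and 321.7 TPM, with 240.9, 195.4 and 163.4 TPM in KO. Snord52, in 1110038B12Rik, was listed at 79.2 TPM against 282.8 and 232.7 TPM, with 170.1, 146.3 and 161.8 TPM in KO. In these 3 snoRNAs the order was the same: WT replicate 1 lowest, the 3 KO libraries between, and the other WT libraries highest.

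Snord12, in Zfas1, followed that order with 136.4 TPM against 346 and 296.7 TPM in WT and 229.5, 220 and 180.9 TPM in KO. Snord14d, a U14 snoRNA of the chaperone gene Hspa8 that acts in maturation of the small ribosomal subunit RNA, was listed at 13.6 TPM against 49.5 and 52.9 TPM in WT and 40.3, 34.4 and 30.7 TPM in KO. Its neighbour Snord14c differs from it at 2 of 86 bases, so reads may be split between them, and showed 8.9 TPM against 28.9 and 29.3 TPM. Hspa8 itself was listed at 2068 TPM in WT replicate 1 and at 2714 and 2691 TPM in the other WT libraries, or 76.5% of their mean, where Snord14d stood at 26.6%. Over the 22 small RNAs of noncoding hosts the median difference of WT replicate 1 was -0.88, beside -0.44 for the hosts. It was -0.45 beside -0.04 in ribosomal protein genes and -0.26 beside -0.20 in other protein-coding genes.

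Set against WT replicates 2 and 3 only, the KO libraries were low in most of the abundant snoRNAs. All 3 KO values lay below both for 46 of 69 C/D members, 27 of 37 H/ACA members, 0 of 8 scaRNAs and 12 of 15 host genes, beside 32.7% of all tested genes and 42.9% of those averaging 10 TPM or more. By kind of host these were 31 of 32 small RNAs in ribosomal protein genes, 18 of 22 in noncoding genes and 19 of 48 in other protein-coding genes. The count was 5 of 12 for those with no host assigned in GENCODE M21. The kinds of host differ in read depth, as given above. The summed TPM of the 114 small RNA members were 5663, 5239 and 5201 in KO and 5159, 8263 and 7031 in WT, so WT replicate 1 had the lowest sum of all and the other WT libraries the highest. For Gas5 the log2 fold change without WT replicate 1 was -0.45, for Snord47 -0.71, for Snora24 -0.80 and for Snord52 -0.69, and each was then called. The choice to leave out this library was informed by how its values look, and the removal also raised the calls over all tested genes, as given above.

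The calls were also counted by the estimated reads behind them. Of the 58 small RNAs with at least 100 estimated reads per library 8 were called lower, of the 38 with 20 to 100 reads 1, and of the 18 under 20 reads 1. Without WT replicate 1 these became 41, 7 and 1. Of all tested genes 6.11% were called lower with all libraries and 14.2% without WT replicate 1. Of those averaging 10 TPM or more the shares were 9.29% and 20.9%. Among the 58, the spread between KO libraries had a median of 9.34% of the mean, near the 7.30% that counting alone gives, whereas between WT libraries it was 24.0% beside 5.76%. Among the 56 small RNAs under 100 reads the spread was 22.3% beside 20.6% in KO and 29.3% beside 16.9% in WT. The spread exceeded the counting error more than 2-fold for 49 of the 58 in WT and for 15 of the 58 in KO, and for 24 and 3 of the 56. All KO values lay below WT replicates 2 and 3 for 53 of the 58, for 19 of the 38 and for 1 of the 18. The same held for 32.7% of all tested genes and 42.9% of those averaging 10 TPM or more.

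**Figure D5:**
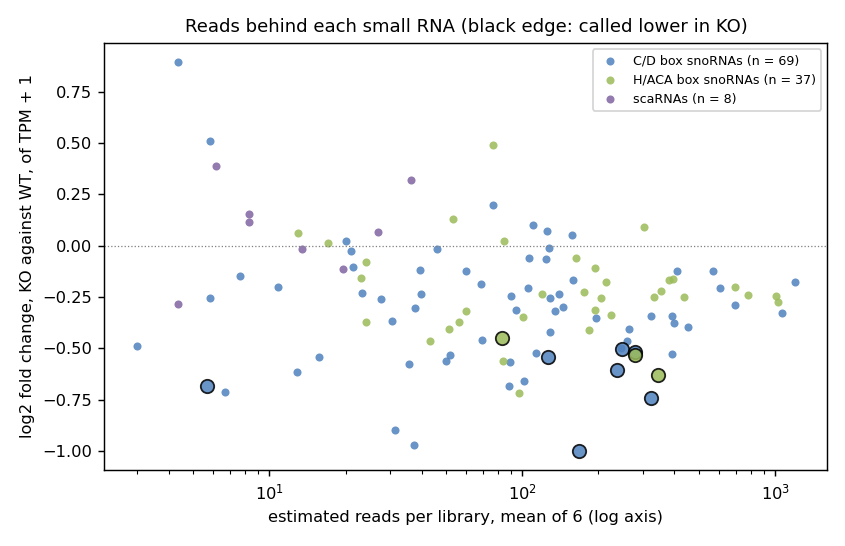
Log2 fold change of TPM + 1, KO against WT with all 6 libraries (vertical axis), against the estimated reads per library (mean of 6, log axis) for the 114 small RNAs, coloured by class, with a black edge for the 10 called lower. Values spread widely under 20 reads, where 10 C/D members, 6 scaRNAs and 2 H/ACA members lie, and narrow to mostly negative values above 100 reads.

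Of the 9 proteins that form the cores of these snoRNPs or bind U3, 5 were called lower in KO, beside 6.11% of all tested genes and 9.29% of those averaging 10 TPM or more. Of the 5 C/D snoRNP proteins, Fbl (fibrillarin, the methyltransferase), Nop56 and Rrp9 (which binds U3) were called lower, and Nop58 and Nhp2l1 (Snu13) missed the test. Rrp9 was listed at 59.4, 49.2 and 50.1 TPM in KO and at 71, 83.4 and 79.3 TPM in WT, with no overlap (log2 fold change -0.55, adjusted p = 0.019 in limma). Fbl was listed at 475.1, 409.4 and 427.6 TPM in KO and at 497.9, 535 and 542 TPM in WT (log2 fold change -0.26, adjusted p = 0.044 in limma). Of the 4 H/ACA proteins, Nop10 (-0.25, adjusted p = 0.026) and Nhp2 (-0.32, adjusted p = 0.040) were called lower. Dkc1 (dyskerin, the pseudouridine synthase) was listed at 98.3, 104.9 and 104.9 TPM in KO and at 94, 105.4 and 102.8 TPM in WT, and the groups overlap (0.03, adjusted p = 0.762 in limma).

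Factors of snoRNP assembly, RNA trimming and RNA decay were called lower in 3 or 4 cases a list, against the same 6.11% and 9.29%. In the list of 16 assembly, processing and Cajal body factors 4 were called lower: Tcof1 (treacle, a nucleolar transcription factor partner; log2 fold change -0.41, adjusted p = 0.025), Nufip1 (an assembly factor of C/D snoRNPs; -0.48, adjusted p = 0.028), Ruvbl2 and Rpap3. In the list of 16 exosome and trimming genes 4 were called lower, Exosc5 (-0.36, adjusted p = 0.023), Mphosph6 (-0.38, adjusted p = 0.031), Exosc2 and Exosc4. In the list of 12 nonsense-mediated decay factors 3 were called lower, Eif4a3 (an exon junction complex helicase; -0.23, adjusted p = 0.020), Smg5 (-0.23, adjusted p = 0.033) and Upf1. No gene of these 5 lists was called higher in limma (0 also at an unadjusted p under 0.05), and their median log2 fold changes were -0.32, -0.23, -0.21, -0.22 and -0.13, beside 0.01 over all tested genes. Every call in these lists was lost when KO replicate 2, KO replicate 3, WT replicate 2 or WT replicate 3 was left out. Without WT replicate 1 the lists had 5, 3, 9, 12 and 5 lower calls, beside 14.2% of all tested genes and 20.9% of those averaging 10 TPM or more. Without KO replicate 1 they had 4, 3, 8, 8 and 3, beside 11.9% of all tested genes.

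Small structured RNAs under other symbols had no common direction. Of 21 listed, 19 were in the files and 14 passed the minimum. Of these 14, 6 had negative log2 fold changes, 0 were called by limma (1 lower and 1 higher at an unadjusted p under 0.05), and the median was 0.20. The list is not free of snoRNAs. Rnu3a, Rnu3b1 and Rnu3b3 (U3) and Rnu73b are C/D box snoRNAs whose symbols the member rule does not take in. They gave log2 fold changes of -0.17, 0.65, 0.22 and -0.12, and none was called. Terc, the telomerase RNA, which carries an H/ACA domain, was listed at 5.7, 6.9 and 5.3 TPM in KO and at 1.5, 3.8 and 3.7 TPM in WT, so the groups do not overlap, yet it missed the test (0.85, adjusted p = 0.067 in limma). Rmrp, the RNA of the RNase MRP ribonucleoprotein, was listed at 13.5, 15.6 and 15.5 TPM in KO and at 3.8, 16.8 and 16.9 TPM in WT. Here too WT replicate 1 lay lowest, as it did below both other WT libraries for 11 of the 14. These values were named after they had been seen.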

How the data were processed

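The authors deposited TPM per gene symbol for 6 libraries (35869 symbols, rounded to 1 decimal, sums 999924 to 999935). Per the labels' protocols, column-purified, DNase-treated RNA gave stranded poly(A) libraries, read as 100 bp pairs to about 120 M reads each. The submitters' processing notes list STAR 2.6.1e, featureCounts 1.6.2, cutadapt 1.9.1 and Trim Galore 0.4.2, and the build mm10. Not given in the sources used here are the annotation, the strand setting, the treatment of multiply mapped reads and the conversion to TPM, so a snoRNA may share reads with an overlapping or antisense gene.

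Every gene reaching 1 TPM in 3 or more libraries entered a limma fit of log2(TPM + 1) (limma 3.58.1, R 4.3.3; genotype as the only term, eBayes with trend, two-sided, Benjamini-Hochberg over 13575 genes, threshold 0.05). Adjusted p-values are from that fit unless another is named. The + 1 understates changes of low genes. No count model was run, because whole reads could be estimated for short genes only. These estimates and their counting errors (Poisson) cover counting error alone, and the reads carry no molecular identifiers. Host genes were the GENCODE M21 genes on the same strand whose span holds the snoRNA, by highest mean TPM where several did. Lengths came from RefSeq (GRCm38.p6), matched for all 129 members. The fit was tested on simulated data.

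Members and lists were chosen with earlier results of these data known. Named genes were, in each class, the 4 called members with the smallest adjusted p in each direction, the 3 with the highest mean TPM, their hosts, Gas5 and 6 Snhg genes, Snord57, 2 called genes of each list in each direction and Chaf1b. Others, and the kinds of host, were chosen after their values were seen. A gene that the rule selects is not reported here. Same-numbered KO and WT libraries deviated with correlations of -0.20, -0.15 and -0.16, which show no pairing by number. Deviations from means of 3 libraries constrain each other, so they cannot exclude a paired design. At most 8.48% of genes had identical TPM in a pair of libraries of 1 group. The main comparison used all 6 libraries.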

Additional observations from a re-analysis of the deposited data

How the results depend on the processing

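Every count below is of genes called in limma at an adjusted p under 0.05, and the cause of a change was not tested unless stated. Pseudocounts of 0.1, 0.5 and 5 and rescaling without small RNA genes left every count and class median on its side, with 11 to 13 members called lower. The value of Chaf1b ran from -1.72 to -1.57 with 1 replicate left out. No called value of a named gene changed direction under the alternatives that gave one (17 or 18 for each of 51 genes; a mean of at least 5 TPM gave values for 48).

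Leaving out 1 replicate in turn, which also lowers the number of samples, gave these ranges. Members called lower ran from 0 to 61 and higher from 0 to 1, C/D lower from 0 to 29, H/ACA lower from 0 to 20, host genes lower from 0 to 12 and higher from 0 to 1. C/D snoRNP proteins ran from 0 to 5, H/ACA proteins from 0 to 3, assembly factors from 0 to 9, exosome genes from 0 to 12, decay factors from 0 to 5, protein-coding hosts from 0 to 19 and noncoding hosts outside the Snhg genes from 0 to 5, all lower, and other small RNAs from 0 to 1 higher. All tested genes ran from 0 to 1923 lower and from 0 to 2927 higher. The highest counts were without WT replicate 1 (for all tested genes 1923 and 2927), and the lowest without KO replicate 3.

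With both replicates 1 left out, 63 members (32 C/D, 19 H/ACA, 12 host) and, by list, 5 C/D proteins, 12 assembly factors, 14 exosome genes, 9 decay factors, 33 protein-coding hosts, 7 noncoding hosts and 2 other small RNAs were lower, 1 other small RNA and 1 protein-coding host were higher, and all tested genes gave 3710 lower and 3859 higher. With array weights, 81 members (42 C/D, 27 H/ACA, 1 scaRNA, 11 host), 5 C/D proteins, 13 assembly factors, 15 exosome genes, 9 decay factors, 39 protein-coding hosts, 7 noncoding hosts and 4 other small RNAs were lower. Then 2 members (1 of them C/D), 3 other small RNAs and 2 protein-coding hosts were higher, and all tested genes gave 4841 lower and 4588 higher.

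Without a filter, which adds low genes to the adjustment (35869 tested), 2 members were lower (1 C/D, 1 H/ACA, 0 host) and 0 higher (26 and 1 at an unadjusted p under 0.05), 1 protein-coding host was lower, 0 genes of the other lists were lower, and all genes gave 39 lower and 486 higher. A mean of at least 5 TPM gave 883 higher over all genes. Median-of-ratios scaling gave 7 exosome genes and 2 noncoding hosts lower. Without a trend 1 H/ACA protein and 2 exosome genes were lower. Quantile normalization gave 1 H/ACA protein, 7 assembly factors and 1 other small RNA lower, 1722 lower over all genes and a scaRNA median of -0.27.

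The replicate block gave 2 members lower (2 C/D, 0 H/ACA, 0 host) and 0 higher (30 and 2 at an unadjusted p under 0.05), 0 lower calls in each list, and 33 lower and 300 higher over all genes. The labels do not pair the libraries, and the same-numbered libraries did not correlate best with each other.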
